A study of Mus musculus with 6 samples.

Results

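The immunoglobulin repertoire of B cell precursors from IkB-deficient mice was compared with that of wild-type mice of the same age, 12 weeks. The comparison rests on the contig and clonotype tables of 2 of the 6 libraries of the study, 1 V(D)J library a genotype. They hold 18043 called cells, 8965 wild-type and 9078 IkB-deficient, of 25212 cells in the 3 V(D)J libraries. The IkB-deficient mice carried the genotype nfkbie-/-nfkbib-/-nfkbia+/-: both copies of the genes for IkB-epsilon and IkB-beta were deleted, together with 1 copy of the gene for IkB-alpha. The strain label of both groups is C57BL/6. Each library was made from the pooled bone marrow of 2 mice, from which B220+ cells were sorted that lacked surface IgM and IgD. The sort also left out cells with the T cell markers CD3e or CD8a, the myeloid markers CD11b, Gr-1 or F4/80, or CD49b of natural killer cells. Gene-expression libraries were made from the same sorted cells. Another V(D)J library, from wild-type mice aged 100 weeks (7169 cells), is used below only to show how far another wild-type library lies from the first.

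The IkB proteins hold NF-kB transcription factors in the cytoplasm, and their loss lets NF-kB reach the nucleus. B cell precursors build the heavy chain first. The RAG recombinase joins a D segment to a J segment and then a V segment to the DJ joint, and an out-of-frame joint leaves a nonproductive chain. A productive heavy chain pairs with the surrogate light chain in the pre-B cell receptor, after which the kappa and then the lambda light-chain genes are rearranged, so that light-chain rearrangement usually follows a productive heavy chain. The loop encoded across the joint, the CDR3, is the most variable part of the antigen-binding site.

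Both libraries were read to a like depth, with 140492624 reads in the wild-type and 149568227 in the IkB-deficient library. Median V(D)J molecules (UMIs) per cell were 38 and 32. The tables hold 31404 wild-type contigs, of which 9843 were productive, and 29168 IkB-deficient contigs, of which 1961 were productive. The libraries shared 87 barcodes, 0.970% of the wild-type and 0.958% of the IkB-deficient ones, and none of these carried the same productive CDR3 in both. With 1 library a genotype there is no replicate, so no test between genotypes was made. Intervals are 95% intervals (Clopper-Pearson for shares, Newcombe for differences in percentage points) and cover counting error only, not the spread between mice. The pools also differed in sex: 91.4% of IkB-deficient cells had Xist without Y-linked transcripts, and 64.1% of wild-type cells had Y-linked transcripts without Xist.

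The heavy-chain sequences of the IkB-deficient library were not those of the other libraries, although the strain label is the same. Strings of 10 bases, read away from the ends of the CDR3, were called private when present in at least 2% of the heavy CDR3s of one library and at most 0.1% of the other. Of 59 such strings common in the IkB-deficient library, 11 were private to it, and of 39 common in the wild-type library 5 were private to that one. Between the wild-type libraries of 12 and 100 weeks none was private in either direction. Stretches around 4 of these strings are shown because they set the libraries apart. Capitals mark the 10-base string, which was then counted anywhere in the CDR3.
common in IkB-deficient, IGHD2-6 and IGHD2-7 calls: aCTATAGGTACgac
common in IkB-deficient, IGHD2-8 calls: AGTATGGTAActac
common in IkB-deficient, IGHD1-1 calls: attaCTACGGCTAC
common in wild-type, IGHD2-6 calls: ctaCTATAGTAACtac
The first string was in 112 of 1700 IkB-deficient CDR3s (6.59%), in 1 of 7584 wild-type CDR3s and in 0 of 4787 at 100 weeks. The second was in 42 of 1700 (2.47%), with 5 wild-type and 3 at 100 weeks, and the third in 48 (2.82%), with 19 and 21. The last was in 222 of 7584 wild-type CDR3s (2.93%), in 149 of 4787 at 100 weeks (3.11%) and in 0 of 1700 IkB-deficient ones.

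The V segments differed in the same way. Among V genes with enough chains to compare, the commonest first 9 bases of the CDR3, which the V segment encodes, differed between the wild-type and IkB-deficient libraries in 3 of 31 heavy V genes. They differed in 0 of 72 between both wild-type libraries. The 3 pairs are printed with the differing base in capitals, and positions are counted from 1 at the first base of the CDR3.
IGHV1-74, wild-type: tgtgcaaTa
IGHV1-74, IkB-deficient: tgtgcaaGa
IGHV2-9, wild-type: tgtgccaAa
IGHV2-9, IkB-deficient: tgtgccaGa
IGHV5-17, wild-type: tgtgcaagG
IGHV5-17, IkB-deficient: tgtgcaagA
These are the changes T8G, A8G and G9A. For IGHV5-17, 70 of 96 wild-type contigs carried the first form and 15 of 19 IkB-deficient contigs the second. Of 80 heavy V genes for which the wild-type share predicted at least 5 IkB-deficient contigs, 9 had none (IGHV1-7, IGHV1-22, IGHV1-36, IGHV1-50, IGHV1-59, IGHV1-80, IGHV2-9-1, IGHV5-16 and IGHV9-2). The same count between the wild-type libraries was 0 of 96. No kappa V gene differed (0 of 23 over the first 18 bases, against 1 of 49, IGKV6-15, between both wild-type libraries), nor did the 2 lambda V genes compared. The heavy-chain locus and Nfkbia both lie on chromosome 12 (Ighm at 113418826 to 113422730 and Nfkbia at 55489409 to 55492647, GRCm38.p6). Effects of the genotype and of the sequence of the heavy-chain locus on V and D usage therefore cannot be told apart here.

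Most wild-type cells held a productive heavy chain, and most IkB-deficient cells held no productive chain at all. A productive heavy chain without a light chain was found in 61.5% of wild-type cells (5515 of 8965, 60.5 to 62.5%) and 11.0% of IkB-deficient cells (996 of 9078, 10.3 to 11.6%). Cells with productive heavy and light chains, called paired, made up 1796 and 121 cells (20.03% and 1.33%), a share 15.03-fold higher in the wild-type library. Cells with no productive chain were 17.04% (1528) and 80.3% (7292). At 100 weeks the wild-type shares were 44.2% heavy-only, 16.7% paired and 36.5% with no productive chain, so the IkB-deficient library lay outside the range of both wild-type libraries.

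Light-only cells were the more frequent in the IkB-deficient library. They were 1.41% of wild-type cells (126, 1.17 to 1.67%), 2.55% at 100 weeks and 7.37% of IkB-deficient cells (669, 6.84 to 7.93%). This is a 5.24-fold higher share than in the 12-week wild-type library (4.34 to 6.33). Among all cells with a productive light chain, 6.56% of wild-type cells (126 of 1922) and 84.7% of IkB-deficient cells (669 of 790) lacked a productive heavy chain, a difference of 78.1 points (75.2 to 80.7). At 100 weeks this share was 13.2% (183 of 1382). Within cells of a like heavy-chain state the gap was much smaller. Among cells without any heavy contig that joined V to J, a productive light chain was found in 6.87% of wild-type cells (89 of 1296) and 8.15% of IkB-deficient cells (590 of 7242). That difference of 1.28 points had an interval that included 0 (-0.347 to 2.69). Among cells whose only V-J heavy contigs were nonproductive the shares were 10.3% (37 of 358) and 11.0% (79 of 719). Among cells with a productive heavy chain, by contrast, 24.6% of wild-type and 10.8% of IkB-deficient cells also had a light chain.

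**Figure D1:**
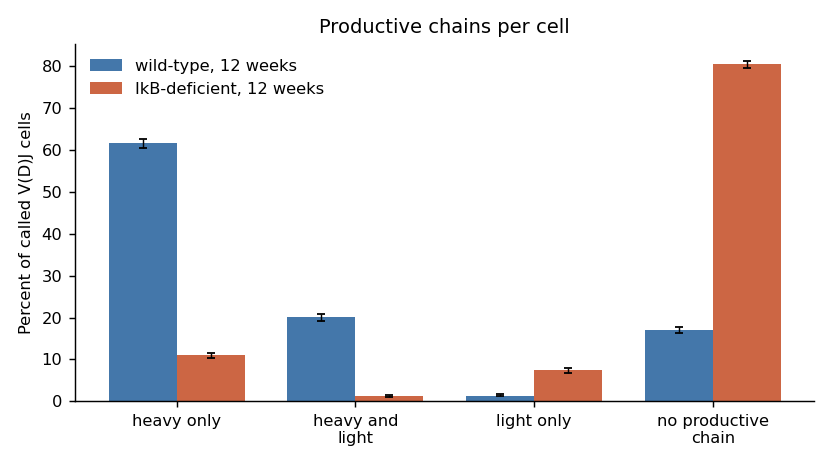
Percent of called cells (vertical axis) in each chain state for the V(D)J libraries, with 95% Clopper-Pearson intervals as error bars. Heavy-only cells are 61.5% of the wild-type and 11.0% of the IkB-deficient library at 12 weeks, and light-only cells 1.41% and 7.37%.

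The cells were checked against their expression. Of the cells with a Cd79a UMI, a B-lineage signalling chain, 79.9% of wild-type and 14.1% of IkB-deficient cells had a productive heavy chain, and 21.0% and 9.98% a productive light chain. Cells with at least 3 UMIs of Siglech, a plasmacytoid dendritic marker, and no Cd79a UMI should lack these chains and served as background. In them a productive heavy chain was called in 14 of 385 wild-type cells (3.64%, median 12 V(D)J UMIs) and 6 of 1376 IkB-deficient cells (0.436%, median 15). A light chain was called in 1.04% and 0.436% of the same cells, below the 7.37% of light-only cells in the IkB-deficient library. The wild-type light-only share of 1.41% was close to that background. The Siglech cells were more numerous in the IkB-deficient library, and the summed level of the 6 plasmacytoid dendritic markers in cells without a productive heavy chain was 3016 CPM (UMI counts scaled to a sum of 1000000) in the wild-type and 1585 in the IkB-deficient library.

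The heavy contigs of the light-only cells also differed. In the IkB-deficient library 83.0% of them (555 of 669) had only heavy contigs without a V segment, against 56.3% (71 of 126) in the wild-type library. A nonproductive V-J heavy contig was found in 11.8% (79) and 29.4% (37), and no heavy contig of any kind in 5.23% (35) and 14.3% (18). Most IkB-deficient light-only cells thus had heavy-chain transcripts in which a J segment was read without a V segment.

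Contigs of all 3 chains were less often productive and more often without a V segment in the IkB-deficient library, with the widest gap for the heavy chain. Of heavy contigs, 68.2% of 11379 were productive in the wild-type and 11.9% of 9554 in the IkB-deficient library, while 20.2% and 79.8% had no V segment. Of kappa contigs 22.1% and 8.84% were productive and 56.8% and 80.8% had no V segment, and of lambda contigs 8.33% and 3.57% were productive and 63.8% and 88.2% had no V segment. Of heavy contigs that joined V to J, 85.7% (7764 of 9064) and 59.1% (1137 of 1924) were productive, a difference of -26.6 points (-28.9 to -24.3). The 100-week wild-type share was 81.3%. For kappa the productive share of V-J contigs was 51.4% (1816 of 3532) and 46.2% (746 of 1614), -5.20 points (-8.12 to -2.25). For lambda it was higher in the IkB-deficient library, 23.0% (262 of 1139) and 30.4% (78 of 257). Counted per cell, 85.5% of wild-type and 20.2% of IkB-deficient cells had a V-J heavy contig. Among these, only nonproductive ones were found in 4.67% (358 of 7669) and 39.2% (719 of 1836). A nonproductive V-J contig beside a productive one was less frequent in the IkB-deficient library (3.94% against 12.4% of cells with a productive heavy chain). Nonproductive heavy CDR3s held a stop codon in 46.4% and 50.9%. All CDR3s the pipeline called were a multiple of 3 bases long, so out-of-frame joints could not be counted from them.

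The heavy contigs without V carried information on the J segment. None of the 2298 wild-type and 7626 IkB-deficient ones had a D call, which allows a share of up to 0.160% and 0.0484%. IGHJ1 was read in 27.9% and 41.9% of them, IGHJ2 in 20.2% and 24.6%, IGHJ3 in 21.3% and 21.6%, and IGHJ4 in 29.98% and 11.5%. IGHJ4, the J segment nearest to the constant region, was thus the one with a lower share in the IkB-deficient library. Kappa contigs without V were found in 52.1% of wild-type and 75.1% of IkB-deficient cells. Of these contigs 17.8% (833 of 4671) and 34.2% (2334 of 6818) held IGKJ1, and most others held no J call.

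IGHD2-7, IGHD2-8 and IGHD4-1 were called more often, and the distal IGHD1-1 less often, in the IkB-deficient library. Of productive heavy chains with a D call, 6706 were wild-type and 1020 IkB-deficient. IGHD1-1 lies far from the J segments (chromosome 12, 113482170 to 113482192, 53.7 kb from IGHJ4 in GRCm38.p6) and made up 43.8% and 20.7%, a difference of -23.1 points (-25.8 to -20.3). IGHD2-8, at 113450851 to 113450867 and 22.3 kb from IGHJ4, made up 5.73% and 16.1%, 10.4 points higher (8.15 to 12.8). IGHD2-7 (28.2 kb) made up 4.24% and 11.5%, and IGHD4-1, which is nearest to the J segments (2.01 kb), 4.89% and 10.5%. IGHD3-2 went against its neighbours with 4.50% and 1.57%, and IGHD3-1, the farthest of those named (96.8 kb), was higher with 1.66% and 4.22%. The remaining IGHD2 genes, IGHD2-3 (12.5% and 11.4%), IGHD2-4 (12.7% and 14.6%) and IGHD2-6 (7.23% and 5.59%), had differences whose intervals included 0. Of the 12 D genes with at least 20 chains, 4 were at least 2-fold higher in the IkB-deficient library (33.3%) and 2 at least 2-fold lower (16.7%). By family, IGHD1 made up 43.8% and 20.7%, IGHD2 42.4% and 59.1%, IGHD3 6.16% and 5.78%, IGHD4 4.89% and 10.5%, and IGHD5 2.79% and 3.92%. Of the IGHD5 genes, IGHD5-5 was in 45 and 12 chains, IGHD5-6 in 27 and 5 and IGHD5-7 in 104 and 22, with intervals that included 0. Positions are those of the reference genome and may not hold for a heavy-chain locus of another sequence.

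The nonproductive heavy contigs, which encode no protein, showed IGHD1-1 lower and IGHD2-8 higher as well. Of 1179 wild-type and 706 IkB-deficient nonproductive contigs with a D call, IGHD1-1 made up 34.9% and 16.9%, IGHD2-8 7.04% and 24.8%, and IGHD2-7 3.90% and 11.5%. IGHD2-3 (14.9% and 9.49%) and IGHD2-6 (10.5% and 6.23%) were lower here. Among the 11 D genes counted there, 3 were at least 2-fold higher (27.3%) and 2 at least 2-fold lower (18.2%). The D genes from IGHD2-7 to IGHD4-1, next to the J segments, made up 20.4% and 41.3% of productive and 19.4% and 45.9% of nonproductive chains. The distal IGHD1-1 and IGHD3-1 made up 45.5% and 24.9% of productive and 35.9% and 20.1% of nonproductive chains. The 100-week wild-type library was near the first, with IGHD1-1 at 38.7% and IGHD2-8 at 5.73% of productive chains. Its IGHD4-1 share (8.70%) lay nearer to the IkB-deficient one. In heavy-only cells IGHD1-1 made up 43.4% and 20.4%, and in paired cells 44.9% and 22.9%.

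**Figure D2:**
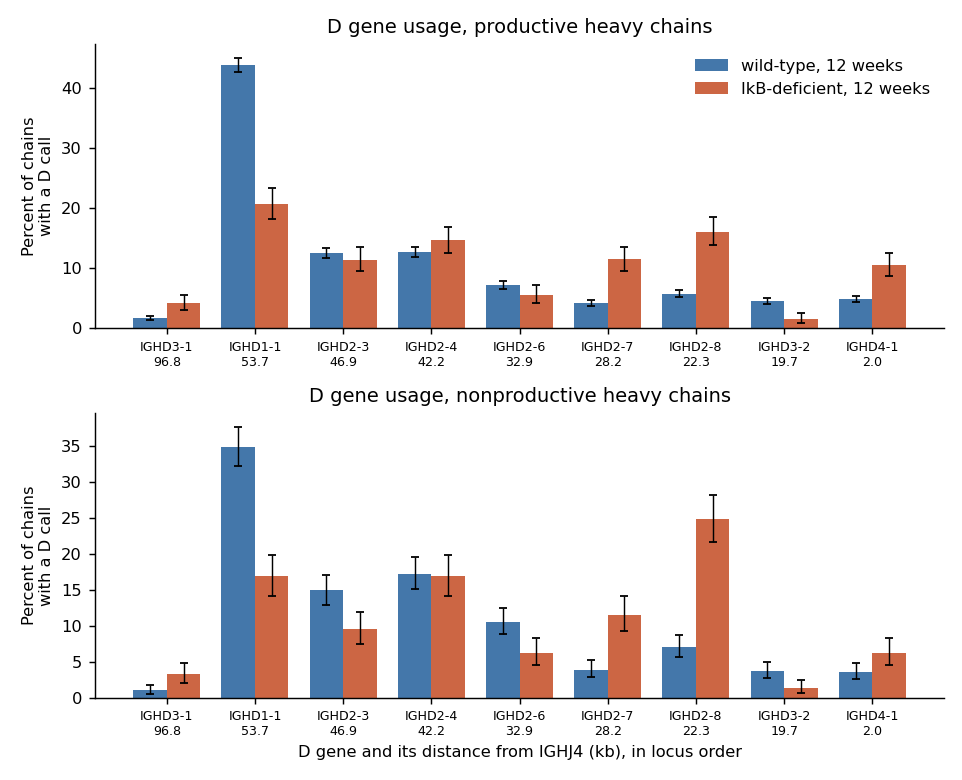
Percent of heavy chains with a D call (with 95% Clopper-Pearson intervals) by D gene, for productive and nonproductive chains of both 12-week libraries. IGHD1-1 is 43.8% of wild-type and 20.7% of IkB-deficient productive chains, and IGHD2-8 5.73% and 16.1%, with the same direction in nonproductive chains.

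The D calls were compared with the letters of the CDR3 itself, since a D call on a different segment sequence could be wrong. For each D gene an 8-base string was searched, on the coding strand. TACGGTAG, held by 68.7% of wild-type IGHD1-1 chains and 0.106% of chains with another D, was found in 27.8% of wild-type and 9.22% of IkB-deficient productive CDR3s, and in 22.2% and 7.19% of nonproductive ones. ATGGTAAC, from IGHD2-8, was found in 3.38% and 9.76% of productive and 3.98% and 16.8% of nonproductive CDR3s. The IGHD2-7 string GGTTACGA did not follow its calls: it was found in 2.15% and 3.22% of productive and 1.99% and 0.654% of nonproductive CDR3s. The IGHD3-1 string AGATCGGG did not follow its calls either, with 1.33% and 1.34% of productive and 1.05% and 0.654% of nonproductive CDR3s. Only 14.4% of wild-type IGHD3-1 chains held it. ACTGGGAC, from IGHD4-1, was found in 1.20% and 2.33% of productive and 1.05% and 3.10% of nonproductive CDR3s. ATGGTTAC, from IGHD2-3, was found in 7.69% and 7.61% of productive ones. GATTACGA, from IGHD2-4, was found in 6.16% and 6.71% of productive ones. ATAGTAAC, from IGHD2-6, was in 286 of 7311 wild-type productive CDR3s (3.91%) and in 0 of 1117 IkB-deficient ones, and GCTCAGGC, from IGHD3-2, in 163 of 7311 (2.23%) and in 0 of 1117. A count of 0 of 1117 allows a share of up to 0.330%. In the IkB-deficient library 35 of 57 IGHD2-6 calls (61.4%) were chains that carried one of the private strings above, as did 28.2% of IGHD2-7, 17.1% of IGHD1-1 and 7.32% of IGHD2-8 calls. These strings were taken from wild-type chains, and a locus of another sequence would change their counts at the same usage, so they are no independent check of the D calls. ATGGTAAC lies inside the private stretch printed for IGHD2-8. Use of a D segment and its sequence cannot be told apart here. The share of D genes near the J segments given above includes IGHD2-7.

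IGHJ4 was used less, and IGHJ2 and IGHJ3 more, in the IkB-deficient library. Of productive heavy chains (7311 and 1117), IGHJ4 made up 32.1% and 15.1%, a difference of -16.9 points (-19.2 to -14.5). IGHJ2 made up 25.1% and 35.7%, IGHJ3 26.1% and 35.7%, and IGHJ1 16.7% and 13.4%. In nonproductive contigs IGHJ4 made up 24.8% and 15.6%, IGHJ2 33.0% and 40.1%, IGHJ3 30.6% and 35.6% and IGHJ1 11.6% and 8.65%. The 100-week wild-type library had IGHJ4 in 22.1% of productive and 20.7% of nonproductive chains, between the 12-week libraries, so the wild-type libraries differed from each other by a large part of that difference. The last bases of the CDR3, which the J segment encodes, had the same commonest form in all libraries. Within each of the 9 D genes compared IGHJ4 was lower in the IkB-deficient library: 26.2% and 14.7% with IGHD1-1, 36.6% and 9.40% with IGHD2-7, and 42.2% and 18.9% with IGHD2-8. It was also lower within each of 11 V families, for example 28.8% and 15.7% in IGHV1 and 35.0% and 13.1% in IGHV5, though the interval of the difference included 0 for IGHV7 and IGHV8. No IGHV4 chain of the IkB-deficient library used IGHJ4 (0 of 41, which allows a share of up to 8.60%), against 54 of 113 in the wild-type library.

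**Figure D3:**
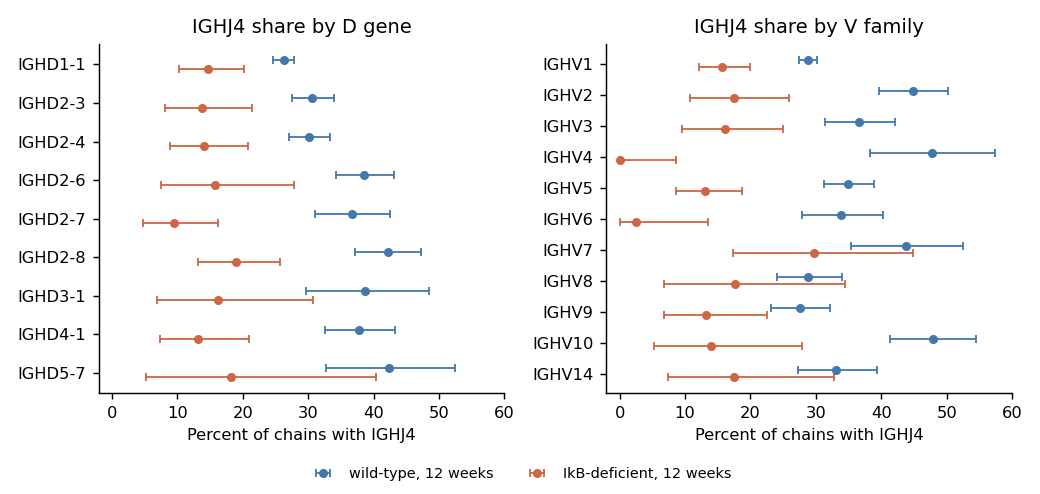
Percent of productive heavy chains that use IGHJ4 (horizontal axis, 95% Clopper-Pearson intervals) within each D gene on the left and each V family on the right. In every D gene and V family shown the IkB-deficient point lies left of the wild-type point, from 42.2% against 18.9% in IGHD2-8 to 28.8% against 15.7% in IGHV1.

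IGHD1-1 was lower with each of the 4 J genes, while pairs of the D genes nearer to J differed by J gene. IGHD1-1 with IGHJ4 made up 11.5% of wild-type and 3.04% of IkB-deficient productive chains, and IGHD1-1 with IGHJ1 11.6% and 4.41%. IGHD2-8 with IGHJ3 made up 1.67% and 6.27%, IGHD4-1 with IGHJ3 96 and 51 chains, and IGHD2-7 with IGHJ2 0.954% and 4.12%. With IGHJ4 the shares of the same D genes were 2.42% and 3.04% for IGHD2-8, 1.85% and 1.37% for IGHD4-1 and 1.55% and 1.08% for IGHD2-7, all with intervals that included 0. IGHD3-2 was lower with IGHJ3 (132 and 3 chains) and IGHJ4 (99 and 2). Of 38 D-J pairs, 12 were at least 2-fold higher (31.6%) and 6 at least 2-fold lower (15.8%). D and J were not joined independently in the wild-type library: IGHD1-1 met IGHJ1 in 779 chains where independent joining would give 508. The IkB-deficient library had a like excess, 45 chains where independent joining would give 29.7 (1.53-fold and 1.51-fold). IGHD1-1 was lower in the IkB-deficient library within all 11 V families, for example 44.6% and 26.5% in IGHV1 and 40.1% and 11.9% in IGHV5, with an interval that included 0 for IGHV8.

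IGHV1 was lower in productive chains of the IkB-deficient library and nearly equal in nonproductive ones, while several smaller families differed in both, not always in the same direction. The IGHV1 family, the largest, made up 57.0% of wild-type and 32.0% of IkB-deficient productive chains, -25.04 points (-27.9 to -22.0). In nonproductive contigs it made up 29.6% and 30.5%, a difference of 0.981 points whose interval included 0 (-3.10 to 5.14). IGHV5, which lies at the end of the locus near the D segments, made up 8.29% and 17.1% of productive and 18.7% and 24.0% of nonproductive chains. IGHV2 made up 4.94% and 9.76% of productive but 15.5% and 14.9% of nonproductive chains. In productive chains IGHV3 (4.51% and 8.86%), IGHV7 (1.87% and 4.21%), IGHV4 (1.55% and 3.67%) and IGHV9 (5.42% and 7.43%) were higher, and IGHV8 (4.69% and 3.04%) was lower. In nonproductive contigs IGHV3 (101 of 1262 and 42 of 763) and IGHV4 (4.20% and 2.10%) were instead lower, with intervals that excluded 0. Among small families, nonproductive IGHV12 was also lower (3.25% and 1.44%) and IGHV14 higher (0.792% and 2.49%). The 100-week library resembled the first, with IGHV1 in 51.6% of productive and 29.1% of nonproductive chains. The nonproductive contigs came from unlike cells: 904 of 1262 wild-type and 44 of 763 IkB-deficient ones lay beside a productive heavy chain. In cells that had no productive heavy chain, nonproductive IGHV1 made up 35.2% and 30.6%, again with an interval that included 0. There IGHV5 (23.7% and 23.9%), IGHV3 (3.91% and 5.56%), IGHV12 (2.79% and 1.53%) and IGHV14 (1.12% and 2.50%) also had intervals that included 0. IGHV4 stayed lower in these cells (5.31% and 1.95%), with an interval that excluded 0.

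Position differed more in productive than in nonproductive chains. The median distance of the V gene from IGHJ4 was 1280 kb in wild-type and 834 kb in IkB-deficient productive chains, and 768 and 712 kb in nonproductive ones. V genes within 500 kb of IGHJ4 made up 14.0% and 28.9% of productive and 36.0% and 40.7% of nonproductive chains. Those between 2000 and 2500 kb made up 22.4% and 10.9% of productive and 12.4% and 10.1% of nonproductive chains. In the wild-type library productive and nonproductive chains therefore differed widely in V position, and in the IkB-deficient library they differed less. All 106 V genes used in productive chains had a RefSeq position. Of nonproductive contigs, 1254 of 1262 wild-type and 761 of 763 IkB-deficient ones had one, and the others were left out.

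**Figure D4:**
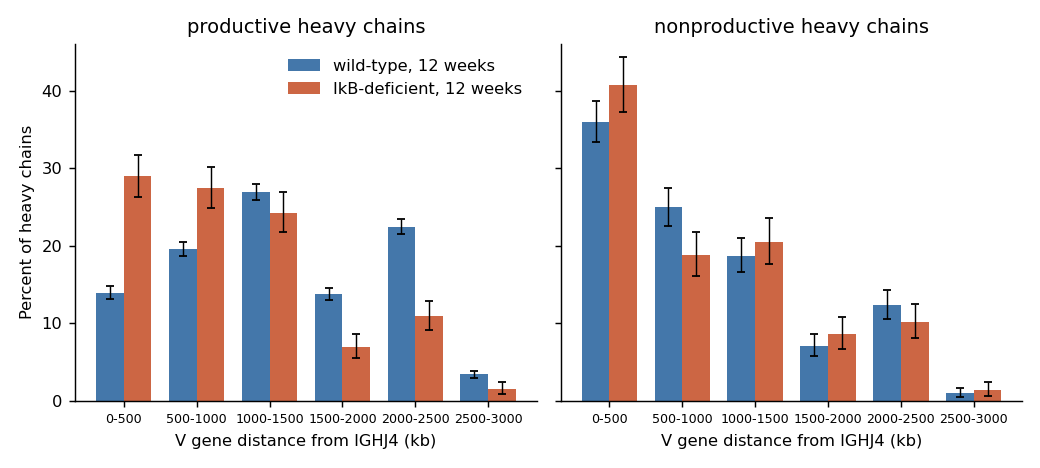
Percent of heavy chains (vertical axis, 95% Clopper-Pearson intervals) by distance of the V gene from IGHJ4 in kb, for productive chains on the left and nonproductive chains on the right. Within 500 kb, productive shares are 14.0% in the wild-type and 28.9% in the IkB-deficient library and nonproductive shares 36.0% and 40.7%.

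Of 79 heavy V genes with at least 20 chains over both libraries, 19 were at least 2-fold higher in the IkB-deficient library (24.1%) and 31 at least 2-fold lower (39.2%). With 7311 wild-type and 1117 IkB-deficient chains, mostly wild-type chains decided which genes met that minimum. The counts of higher and lower genes therefore cannot be set against each other. IGHV3-1 was found in 21 wild-type and 46 IkB-deficient chains, 0.287% and 4.12%, a 14.3-fold higher share. IGHV5-9-1 made up 0.629% and 4.83% (7.68-fold), and IGHV5-2, the V gene closest to the D segments among these (113578504 to 113578990), 0.698% and 4.48% (6.42-fold). IGHV2-6-8 was in 12 and 21 chains and IGHV1-34 in 11 and 18. At the other end IGHV1-80 was in 98 wild-type chains, IGHV1-22 and IGHV1-50 in 92 each, IGHV5-12 in 82 and IGHV2-9-1 in 72, and all of them in 0 of 1117 IkB-deficient chains. IGHV5-12 and IGHV2-9-1 lie within 500 kb of IGHJ4, so the V genes without a productive IkB-deficient chain were not only distal ones. IGHV2-9-1 is among the V genes named above that had no IkB-deficient V-J contig at all, and IGHV5-12 is not. The most used wild-type V gene, IGHV1-26, made up 5.44% and 3.31%. IGHV1-81 made up 3.54% and 0.627%, and IGHV9-3, the most used in the IkB-deficient library, 3.79% and 5.28%.

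V-J pairs with IGHV1 and IGHJ4 were lower. Of 158 pairs with at least 20 chains over both libraries, 25 were at least 2-fold higher in the IkB-deficient library (15.8%) and 71 at least 2-fold lower (44.9%). That minimum too was met mostly by wild-type chains, and a pair near it is expected in few IkB-deficient chains. The counts of higher and lower pairs therefore cannot be set against each other. IGHV1 with IGHJ4 made up 16.4% and 5.01% of chains, the largest single family pair of the wild-type library. IGHV3-1 with IGHJ3 was in 6 of 7311 wild-type and 21 of 1117 IkB-deficient chains, IGHV3-1 with IGHJ2 in 5 and 16, IGHV5-9-1 with IGHJ2 in 12 and 22, IGHV4-1 with IGHJ2 in 10 and 17, and IGHV5-2 with IGHJ3 in 14 and 20. IGHV1-72 with IGHJ4 (79 wild-type chains), IGHV1-18 with IGHJ4 (60), IGHV1-75 with IGHJ2 (54), IGHV4-1 with IGHJ4 (54) and IGHV1-55 with IGHJ2 (51) were in no IkB-deficient chain. The most used wild-type pairs were IGHV1-26 with IGHJ4 (126 and 3 chains), IGHJ2 (110 and 14) and IGHJ3 (101 and 14). IGHV9-3 with IGHJ2 led the IkB-deficient library (82 and 25 chains, 1.12% and 2.24%), followed by IGHV5-6 with IGHJ2 (19 and 23) and IGHV5-9-1 with IGHJ2.

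The heavy CDR3 was shorter in the IkB-deficient library. Its mean length was 14.40 amino acids (SD 2.90 over 7311 chains) in the wild-type and 13.68 (SD 2.71 over 1117) in the IkB-deficient library, a difference of -0.73 (-0.90 to -0.55), and 14.28 in the wild-type library of 100 weeks. Chains are not replicates, so this interval too covers counting error only. CDR3s of at least 17 amino acids made up 23.7% and 13.9%, while those of at most 10 made up 10.3% and 11.5%, so the larger difference was in the share of long loops. It was -0.69 in heavy-only and -1.04 in paired cells. Within a J gene it was smaller: 15.87 and 15.27 with IGHJ1, 13.30 and 12.98 with IGHJ2, 13.50 and 13.21 with IGHJ3, and 15.24 and 15.01 with IGHJ4. Chains without a D call had 10.50 and 10.24. When the wild-type chains were weighted to the D and J mix of the IkB-deficient library, their mean was 13.65, 0.0247 below the IkB-deficient mean. At a like mix the means were thus nearly equal. The weights rest on the D calls, with the limits given above. Weighting to J alone gave 14.01 and to D alone 14.04. With V family, D and J together, the means were 13.77 and 13.70 over the 1058 IkB-deficient chains covered.

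**Figure D5:**
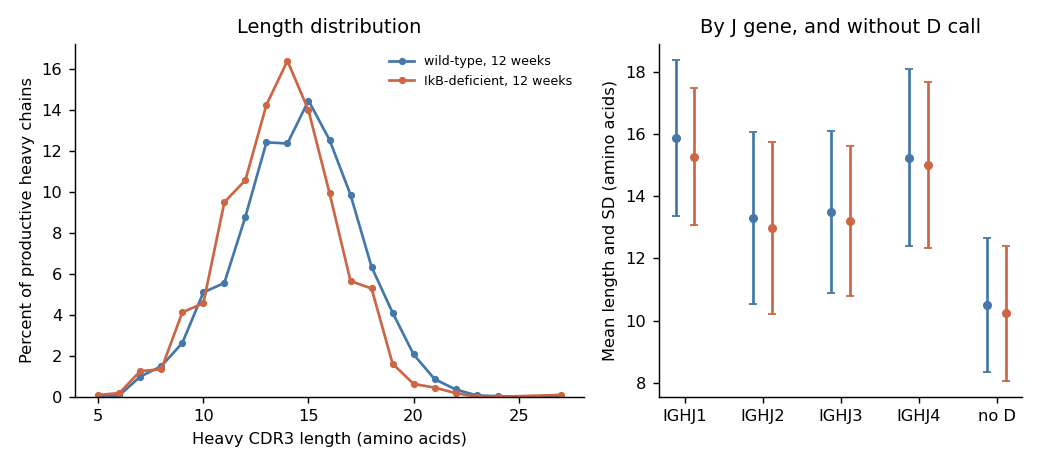
Left, percent of productive heavy chains by CDR3 length in amino acids. Right, mean CDR3 length with SD over chains by J gene and for chains without a D call. The IkB-deficient curve lies to the left of the wild-type curve, with means of 13.68 and 14.40, and within a J gene the means differ by less (12.98 and 13.30 with IGHJ2).

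Loops of the IkB-deficient library held less serine and more phenylalanine and arginine. With the 3 first and 3 last residues left out, serine made up 9.02% of wild-type and 4.94% of IkB-deficient residues, -4.08 points (-4.57 to -3.55). Intervals of residue shares count every residue as a separate draw. Residues of a loop come from the same joint, so these intervals may be too narrow even for counting error over chains. Tyrosine, the commonest residue of the loop, made up 20.7% and 19.2% (-1.52 points, -2.40 to -0.618), and alanine 6.13% and 4.87%. Phenylalanine was higher with 7.62% and 9.90%, arginine with 4.69% and 6.49%, and the positively charged residues together with 7.04% and 8.76%. Glycine was 12.5% and 12.8%, with an interval that included 0. IGHD1-1 chains had more serine than IGHD2-8 chains in both libraries: 13.3% and 9.65% with IGHD1-1, and 3.17% and 3.21% with IGHD2-8. Within IGHD2-8 chains the serine share was thus nearly equal in both libraries, while within IGHD1-1 chains it was lower in the IkB-deficient library. Mean net charge was -0.10 and -0.02, and trimmed loops with no tyrosine made up 24.96% and 31.9% of chains.

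Light chains came from different cells in the libraries: 1566 of 1672 wild-type kappa chains were from paired cells, against 106 of 717 IkB-deficient ones. Shares over all light-chain cells therefore mix genotype and cell state, and are given by state where named. Lambda made up 13.0% of all wild-type light-chain cells and 9.24% of IkB-deficient ones. In paired cells it made up 12.8% (230 of 1796) and 12.4% (15 of 121), and in light-only cells 15.9% (20 of 126) and 8.67% (58 of 669). Among all kappa chains the J gene farthest from the V genes, IGKJ5, made up 28.3% and 18.3%, and IGKJ1, the nearest, 30.9% and 37.8%. IGKJ2 (22.0% and 23.2%) and IGKJ4 (18.8% and 20.8%) had intervals that included 0. Within a state the IGKJ1 intervals included 0 as well (485 of 1566 and 34 of 106 paired, 32 of 106 and 237 of 611 light-only). The IGKJ5 difference was larger in light-only cells (31.1% and 17.5%) than in paired cells (28.1% and 22.6%), where its interval included 0. That difference between cell states was not tested. Over both states lambda chains used IGLJ2 in 39.2% and 9.59%, and IGLV1 in 61.2% and 79.5%. In paired cells, IGLJ2 was in 94 of 230 wild-type and 6 of 15 IkB-deficient lambda chains, and in light-only cells in 4 of 20 and 1 of 58.

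Over both states, of 47 kappa V genes with at least 20 chains over both libraries, 7 were at least 2-fold higher in the IkB-deficient library (14.9%) and 14 at least 2-fold lower (29.8%). Wild-type cells gave 1672 kappa chains and IkB-deficient cells 717, so the limit on such counts given above holds here too. IGKV2-109 made up 0.957% (16 chains) and 8.09% (58 chains), an 8.45-fold higher share, and in light-only cells alone 1 of 106 and 53 of 611 chains. IGKV10-95 (2.51% and 8.79%), IGKV19-93 (2.39% and 6.28%), IGKV1-110 (1.32% and 4.74%), IGKV3-10 (0.658% and 4.04%), IGKV4-61 (0.658% and 2.37%) and IGKV4-86 (1.08% and 3.07%) were also higher. Within light-only cells IGKV1-110 was in 6 of 106 and 32 of 611 chains, IGKV10-95 in 5 and 59, IGKV19-93 in 5 and 39, IGKV3-10 in 1 and 29 and IGKV4-86 in 3 and 21, all with intervals that included 0. IGKV2-109 had an interval that excluded 0 in both states (15 of 1566 and 5 of 106 paired). IGKV8-16 was lower, with 7.24% (121) and 1.12% (8), as were IGKV5-45 (2.03% and 0.279%) and IGKV12-44 (2.33% and 0.418%). In paired cells IGKV8-16 was in 114 of 1566 and 5 of 106 kappa chains, with an interval that included 0. Kappa V genes with a given J were compared in 16 pairs, of which 6 were at least 2-fold higher (37.5%) and 5 at least 2-fold lower (31.2%). IGKV10-95 with IGKJ1 was in 24 and 36 chains, and IGKV8-16 with IGKJ5 in 35 and 1. The mean kappa CDR3 was longer in the IkB-deficient library in paired cells (10.95 and 11.34 amino acids) and in light-only cells (10.99 and 11.33). Lambda CDR3s over both states had 11.18 and 11.21, with an interval of the difference that included 0.

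Heavy and light chains met in few IkB-deficient cells, which limits the comparison of pairing. The lambda share was 12.8% with IGHV1 and 12.8% with other families in the wild-type library, and 11.6% (5 of 43) and 12.8% (10 of 78) in the IkB-deficient one. Cells with at least 2 productive heavy chains made up 5.87% of wild-type (429 of 7311) and 1.79% of IkB-deficient (20 of 1117) cells with a heavy chain. At least 2 productive light chains were found in 7.70% (148 of 1922) and 4.30% (34 of 790) of cells with a light chain, and both kappa and lambda in 2.39% and 1.01%. No doublet caller was run, so the part of doublets in these counts was not tested. Productive heavy chains were joined to IGHM in 99.8% of cells of either library.

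Clones, defined as cells with the same V, J and CDR3 bases, were small in both libraries. Of wild-type cells with a heavy chain 4.28% (313 cells in 147 clones) and of IkB-deficient ones 9.31% (104 cells in 47 clones) belonged to a heavy clone of at least 2 cells. The clonotypes of the authors' deposited table gave 3.19% and 14.8% on their own definition, which also holds light-only clonotypes. Light chains recurred far more often: 69.9% of wild-type and 22.6% of IkB-deficient kappa cells, and 90.0% and 76.7% of lambda cells, shared their chain with another cell. These shares rise with the number of cells read, which was 1672 and 717 for kappa and 250 and 73 for lambda. No count at an equal number of cells was made, so they are not compared between genotypes. The CDR3s of the largest heavy clones are shown, with 8 wild-type and 4 IkB-deficient cells, and in the second the IGHD2-4 string GATTACGA in capitals.
wild-type, IGHV1-20, IGHD2-8, IGHJ3: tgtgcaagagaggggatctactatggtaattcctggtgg
IkB-deficient, IGHV5-2, IGHD2-4, IGHJ4: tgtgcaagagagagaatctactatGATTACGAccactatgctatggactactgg
IkB-deficient, IGHV5-6, IGHD5-7, IGHJ2: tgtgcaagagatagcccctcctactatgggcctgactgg
The IkB-deficient clones printed are 2 of 3 tied at 4 cells, and none of the cells in these 3 printed clones had a light chain. No heavy clone was shared between the libraries (0 of 7145 wild-type and 1060 IkB-deficient clones), while 7 heavy CDR3 amino-acid sequences were, 0.0986% and 0.662% of each library's.

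Light chains were shared, and the commonest shared ones are printed because they recurred in both genotypes.
IGKV1-135, IGKJ1: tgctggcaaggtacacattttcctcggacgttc
IGKV8-16, IGKJ1: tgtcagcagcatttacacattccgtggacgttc
IGLV1, IGLJ1: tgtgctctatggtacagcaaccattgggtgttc
IGLV2, IGLJ2: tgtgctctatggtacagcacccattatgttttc
The first was in 33 wild-type and 2 IkB-deficient cells and the second in 28 and 1. The third was in 56 (22.4% of lambda cells) and 25 (34.2%), of which 21 of the IkB-deficient cells were light-only, and the fourth in 50 of 250 and 5 of 73. In all 155 kappa chains were shared, 19.3% of the wild-type and 24.96% of the IkB-deficient ones, and 15 lambda chains, 31.2% and 53.6%. Identical light chains therefore do not mark cells of one clone here.

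Genes of recombination and of the pre-B cell receptor were read in the same cells, state by state, from a list of 28 genes. In cells without a productive heavy chain (1643 wild-type and 7908 IkB-deficient), 23 were at or above a mean of 20 CPM. Their median log2 ratio was -0.13 on the log2(CPM + 5) scale, against -0.02 over all 6095 genes. Of them 1 was at least 2-fold higher and 0 lower, while 1.41% and 1.64% of all genes were. That gene was Nfkb2, an NF-kB subunit and NF-kB target, with 23.3 and 129 CPM. The polymerase gene Polm, with 28.7 and 10.3 CPM and a log2 ratio of -1.13, lay just below the 20 CPM minimum and was not counted. The recombinase gene Rag1 was 112 and 86.5 CPM, Dntt, which adds bases at the joints, 1276 and 975, the DNA-end binding gene Xrcc6 434 and 236, and the surrogate light-chain genes Igll1 2590 and 3389 and Vpreb1 2031 and 2350. These 5 genes lay within 2-fold of each other in the libraries.

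In cells with a productive heavy chain alone (5465 and 987), 5 of 23 list genes were at least 2-fold higher and 1 lower, against 3.01% and 2.0% of 5849 genes. Dntt was 101 and 371 CPM, Igll1 516 and 1855, Vpreb1 345 and 1323, Vpreb2 28.1 and 162 and Nfkb2 35.8 and 150, and the polymerase gene Polm was lower with 160 and 62.5. Beside this, the summed level of 6 pro-B markers was 1425 and 3919 CPM and that of 4 cycling markers 1244 and 802, with all of these markers detected in both libraries. The pro-B markers include the list genes Dntt, Rag1, Igll1 and Vpreb1. Their sum thus largely restates those genes and is no separate sign of cell stage. The immature and mature B marker sum was 384 and 1612 CPM. The part of these markers in the gene levels was not tested. In light-only cells (122 and 664), 24 genes were measured. Of these, 5 were higher (Dntt, 422 and 864, Igll1, 1447 and 3998, Vpreb1, 1271 and 2802, Vpreb2, 124 and 344, and Nfkb2, 84.7 and 205), against 3.22% of 6116 genes. Another 4 were lower (Polm, Xrcc6, Ikzf3 and Irf4), against 4.46%. Irf4, which promotes light-chain rearrangement, was 226 and 79.4 CPM. The IkB-deficient light-only cells had a pro-B marker sum of 8164 CPM, above the 3717 CPM of the wild-type ones, a sum that again holds Dntt, Igll1 and Vpreb1. The plasma cell marker sum was 1419 and 112 CPM, and Jchain, which led it, was 1204 CPM in the wild-type light-only cells and 0.486 in the IkB-deficient ones. In paired cells (1784 and 118) 6 genes were higher (4.11% of 6041 genes) and 2 lower (2.67%). The higher ones were Dntt (102 and 239 CPM), Vpreb1 (223 and 611), Vpreb2 (14.96 and 99.2), Igll1 (292 and 978), Irf8 (350 and 732) and Nfkb2 (82.6 and 237), and the lower ones Xrcc6 (627 and 285) and Polm (268 and 115). Beside this the immature and mature B marker sum was 573 and 3070 CPM, the plasma cell sum 1160 and 133 and the myeloid sum 5.68 and 239, whose part was not tested.

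Igkc UMIs were also found in cells without a called light chain, and in cells of other types. In cells without any productive chain, Igkc was 108 CPM in the wild-type and 913 CPM in the IkB-deficient library, and was read in 492 of 1521 and 6038 of 7244 cells. Ighm in the same cells was 1279 and 1197 CPM. Iglc3 was 93.0 and 199 CPM. Median expression UMIs per cell were higher in the IkB-deficient library (6630 and 3895), so the shares of cells with a UMI are not at one depth. The cells with Siglech and no Cd79a UMI, used above as background, read Igkc at 78.3 CPM in the wild-type and 874 CPM in the IkB-deficient library (82 of 385 and 837 of 1376 cells). The natural killer marker cells read it at 58.4 and 515 CPM. Igkc CPM in cells without a productive chain was thus near that of the Siglech cells. The share of cells with an Igkc UMI was less alike. It was 34.5% and 88.3% in cells with a Cd79a UMI and no productive chain. In the Siglech cells it was 21.3% and 60.8%, and in the natural killer marker cells 15.5% and 42.7%. Median expression UMIs of these IkB-deficient cells were 7198, 6527.5 and 6885. How much of the Igkc signal is background was not tested, so it is not read as expression or as a difference between the B cell precursors.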

How the data were processed

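Single-cell 5′ gene-expression and V(D)J libraries were deposited as Cell Ranger output on mm10, per the submitters' processing notes, and the matrix header gives software version 3.0.1. The contig tables hold UMI and read counts per contig, per the file headers, with the authors' pipeline calls of V, D, J, C, CDR3, productivity and cell. The clonotype tables hold each clonotype's cell count and its fraction of cells, as deposited by the authors. The matrices hold UMI counts per gene, per the file headers. The aligner's settings and the V(D)J reference are not given in the sources used here.

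Each cell was assigned the productive chain of most UMIs per locus. A nonproductive chain had V and J but was not called productive. Expression cells had at least 500 UMIs, 300 genes and at most 10% mitochondrial counts. Counts were summed over cells of a state and scaled to CPM without immunoglobulin and T cell receptor genes. No doublet caller was run, and cells with more chains than 1 cell should have were left out in an alternative. Python 3.11.15, pandas 2.3.3 and SciPy 1.17.1 were used, and steps were tested on simulated data.

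The genes and pairs named are all D and J genes with at least 20 chains, the 5 highest, 5 lowest and 3 most used V genes and V-J pairs of each library, and the gene list. The minimum of 20 chains was counted over both libraries, so mostly wild-type chains decided which genes and pairs were counted as higher or lower. Single kappa V genes, private strings, V ends, missing V genes, D strings, V position, expression of light-only cells, Igkc in reference cells and the comparison with 100 weeks were chosen after the data were seen. The members and lists were chosen with earlier results of these data known. Gene positions are from RefSeq (GRCm38.p6), and germline segment sequences were not used here.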

Additional observations from a re-analysis of the deposited data

Results flagged for a closer look

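Contigs joined to IGHG2B, a class-switched constant region, made up 2.71% of all contigs in the IkB-deficient library (791 of 29168), against 0.207% in the wild-type (65 of 31404) and 0.423% in the 100-week library (94 of 22207). They lie outside the repertoire comparison because only 1 of the IkB-deficient ones and 6 of the wild-type ones were productive. In the IkB-deficient library 777 of 791 (98.2%) carried a call of the T cell receptor segment TRAJ15 and 11 carried TRAJ13. In the wild-type library 57 of 65 (87.7%) and at 100 weeks 69 of 94 (73.4%) carried TRAJ13, and none carried TRAJ15. The expression libraries had 5598 Ighg2b UMIs in 1855 IkB-deficient cells and 2127 UMIs in 291 wild-type cells. For Ighg2c they had 20 UMIs in 20 cells and 1325 UMIs in 88 cells. Since the heavy-chain locus of the IkB-deficient library differs in sequence, a different level of these constant-region genes and a different or missing gene cannot be told apart.

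Contigs that paired a T cell receptor J call with an immunoglobulin constant region made up 27.1% of IkB-deficient and 21.1% of wild-type contigs. Among IGHM contigs, TRAJ9 was called in 37.4% and 33.9%. What these calls stand for was not tested.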

How the results depend on the processing

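Of 34 alternatives to 13 results, 26 kept their direction and stayed within the interval of the main value, 7 moved further and 1 changed sign. The difference in cells with a productive heavy chain (-69.2 points) was -64.7 over all cells of the expression matrix, -68.0 with at least 3 UMIs a chain, -65.8 in cells with a Cd79a UMI and -74.4 when each cell was thinned to 15 V(D)J UMIs (88.0% and 13.6%, with 1099 and 1348 shallower cells left out). The light-only difference (5.96 points) was 7.17 in cells with a Cd79a UMI. The difference in the productive share of V-J heavy contigs (-26.6 points) was -19.2 with at least 3 UMIs. The difference in cells in clones (5.03 points) was 11.7 with the authors' deposited clonotype table. The CDR3 length difference (-0.73 amino acids) nearly vanished, at 0.0247, when the wild-type chains were weighted to the same D and J mix. The cause of these movements was not tested, except that the weighting itself fixes the last. The Cd79a, thinned and weighted settings, and that without chains carrying a private string (IGHD1-1 -24.4 and IGHD2-8 11.2 points), were chosen after seeing the data. No paired analysis was possible because each genotype has 1 library.

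With 1 library of 2 pooled mice a genotype, library, sex, heavy-chain locus sequence and genotype cannot be told apart. The 1117 productive heavy and 121 paired chains of the IkB-deficient library limit its V-J pairs and light-chain pairing, where 0 chains still allow up to 0.330% of heavy chains.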

Other observations

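Counts of class-switched transcripts differed by gene, with the limit on heavy-chain constant regions given above. Ighg1 was read in 165 IkB-deficient cells and 1 wild-type cell (179 and 1 UMIs), and Ighg3 in 24 and 2 cells. In wild-type paired cells Ighg2c (1243 UMIs) and Ighg2b (1623 UMIs) were concentrated in 22 and 27 cells. IGHV6-7 was called in 8 of 1924 IkB-deficient V-J heavy contigs, 0 of 9064 wild-type ones and 2 at 100 weeks.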
